A study of Mus musculus with 8 samples.

Results

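Pax7, Myf5 and Myf6, transcription factors that set and keep the identity of muscle cells, are 3 of the 273 genes for which H3K27me3 profiles were deposited. They were taken by their symbols, and each had a profile in all 4 H3K27me3 libraries. All 3 stand under the heading DOWN in the deposited tables, which holds 53 genes against 220 under UP. The sources used here do not say how the genes were chosen. The libraries came from primary myoblasts of mouse hindlimb muscle, grown with horse serum and bFGF. Knockout cells (Psat1cKO) carried 1 Cre allele at Pax7 (labelled Pax7 CRE+/-) and floxed Psat1 alleles, and control cells had wild-type Pax7 (labelled Pax7+/+) and the same floxed Psat1 alleles. There were 2 libraries per genotype, replicate 1 and replicate 2. Cre is placed at Pax7 by this genotype, so the Pax7 locus differs between the groups by construction, and Cre acts only where Pax7 is or was expressed. Psat1 encodes an aminotransferase of the serine synthesis pathway.

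H3K27me3 is the trimethylated lysine 27 of histone H3, written by Polycomb repressive complex 2, and it covers genes kept silent, often over and upstream of their starts. CUT&RUN maps it with an antibody that tethers a nuclease, so that DNA around the mark is cut out and sequenced. Pax7, a paired-box and homeodomain factor, marks satellite cells, the stem cells of adult muscle, and the myoblasts that come from them. Myf5, a basic helix-loop-helix factor, commits cells to the muscle lineage and is expressed in myoblasts. Myf6, also called Mrf4, is a basic helix-loop-helix factor of the same family that is best known from differentiating and mature muscle fibres. Myf5 and Myf6 lie side by side and share a set of regulatory elements.

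By the RefSeq annotation of mm10 (assembly GRCm38.p6), Pax7 spans chr4:139737059-139833530 on the minus strand, a length of 96472 bases. Myf5 spans chr10:107482908-107486927 and Myf6 chr10:107492848-107494723, both on the minus strand. The stretch between Myf5 and Myf6 is 5920 bases long and holds 0 other annotated genes. Myf6 therefore lies upstream of Myf5, and the downstream end of Myf6 faces the upstream side of Myf5.

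The promoters are shown because Polycomb complexes in mammals act mainly at promoters rich in CG dinucleotides, which the Pax7 and Myf5 promoters hold in very unequal number. Each sequence runs from 250 bases before to 50 bases after a start of transcription (RefSeq, GRCm38.p6), 5′ to 3′ on the minus strand, with CG in capitals. The Pax7 window is chr4:139832919-139833218 and the Myf5 window chr10:107486085-107486384. The spans above reach to the outermost annotated end, and the windows lie inside them, with their upstream edge 312 bases within the span of Pax7 and 543 bases within that of Myf5.
Pax7: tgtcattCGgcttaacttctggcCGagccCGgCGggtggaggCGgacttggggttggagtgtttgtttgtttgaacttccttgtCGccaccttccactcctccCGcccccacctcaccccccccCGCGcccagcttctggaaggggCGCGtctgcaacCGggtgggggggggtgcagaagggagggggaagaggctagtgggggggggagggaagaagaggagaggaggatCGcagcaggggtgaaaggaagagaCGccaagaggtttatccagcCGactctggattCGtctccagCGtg
Myf5: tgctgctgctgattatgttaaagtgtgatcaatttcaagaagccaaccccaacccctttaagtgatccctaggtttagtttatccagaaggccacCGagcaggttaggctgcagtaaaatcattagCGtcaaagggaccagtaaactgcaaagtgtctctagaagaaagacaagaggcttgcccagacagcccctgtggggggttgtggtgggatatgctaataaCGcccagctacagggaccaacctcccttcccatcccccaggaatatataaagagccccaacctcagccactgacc
The Pax7 window held 17 CG dinucleotides and was 63.7% G and C, whereas the Myf5 window held 3 and was 49.7% G and C. The ratio of observed CG to the number expected from the base composition was 0.581 for Pax7 and 0.163 for Myf5, higher than in 63% of the 32851 promoter windows of the genome for Pax7 and in 23% for Myf5. The median window held 7 CG dinucleotides, and the median among the 192 genes of the tables with a window held 12. The motif CANNTG, the general letters of sites bound by basic helix-loop-helix factors such as Myf5 and Myf6, reads the same on both strands and had 0 matches in either window, against at least 1 in 72.3% of all windows. TATAAA, searched on both strands, had 1 match, in Myf5, and was found in 13.6% of all windows. Over those 192 genes, Spearman's rho between the CG ratio and the upstream flank signal described below was 0.31, a description across genes that share their libraries.

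The tables give a signal, coverage by sequenced fragments, at a fixed number of points along each gene. From the values, points 1 to 20 are the upstream flank, points 21 to 81 the gene body, scaled so that long and short genes have equally many, and the points from 82 on the downstream flank, as long as the upstream one. Neighbouring points within 0.02 of a step of each other, among those with signal, made up 64.8% in the body of Myf6 and 52.2% in that of Myf5, both short genes, against 9.82% in that of the long gene Pax7. Profiles follow the direction of transcription: over the 118 minus-strand genes the signal was 0.177 at points 11 to 30 and 0.0924 at points 72 to 91. No source used here gives the width of a flank in bases. Of the values above 0.01 in a library, 90.9 to 92.4% were, within 0.02 of a step, whole multiples of a step of 0.0907 to 0.115, and if these are coverage per 1000000 reads the libraries held 8.70e+06 to 1.10e+07 reads. Signal summed over a profile and divided by this step counts how often its points were covered, and it is given below as steps. IgG libraries, the antibody control, were not analysed here, and a low value cannot be told apart from background. Across genes, replicate 2 differed from replicate 1 in both genotypes, and the myogenic factors were among the genes where it differed most, which bears on every value below. In bulk libraries a larger share of cells with the mark and more mark per cell cannot be told apart.

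Pax7 had the highest mean signal of the 3 genes in each library except control replicate 1, where Myf6 was higher. Its mean signal per point was 0.279 and 0.516 in knockout replicates 1 and 2, against 0.0333 and 0.357 in control replicates 1 and 2. It ranked 11 of 273 genes by mean signal in knockout replicate 2 and 29 in control replicate 2, but 178 in control replicate 1. The value of knockout replicate 1 rests on 1 point. Point 60 there stood at 20.9, or 197 steps, between neighbours of 0.106, and held 74.1% of the signal of the profile. No other of the 110292 values in the 4 libraries exceeded 4.14, so this point was 5.03 times the next highest. Point 60 lies 65% of the way from the start to the end of the gene, and it was covered 0, 2 and 3 times in knockout replicate 2, control replicate 1 and control replicate 2. With the point replaced by the mean of its neighbours, the Pax7 mean in knockout replicate 1 was 0.0731 and its rank 137 of 273.

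Per profile point, the Pax7 signal lay over the start of the gene. The shares below count points and not bases, since the body is scaled and the width of a flank is not given. With point 60 replaced, points 1 to 30, which are the upstream flank and the first 10 points of the body, held 62.6% and 67.1% of the Pax7 signal in knockout replicates 1 and 2, against 60.7% and 66.8% in control replicates 1 and 2. The median gene had 40.9 to 43.2% there, and 80.6 to 82.7% of genes with signal had a smaller share than Pax7. The share thus stayed within 60.7 to 67.1% in libraries whose Pax7 signal differed as much as 465 steps in knockout replicate 2 and 37.1 steps in control replicate 1. In replicate 2 the signal at points 21 to 30 averaged 1.499 in knockout and 0.951 in control cells, and at points 41 to 50 it averaged 0.146 in knockout and 0.0920 in control cells. A weaker rise followed in both replicate 2 libraries. Points 61 to 70 averaged 0.426 in knockout and 0.231 in control cells, and points 81 to 90, around the end of the gene, 0.482 in knockout and 0.264 in control cells. Across all points of the profile Spearman's rho between the knockout and control profiles of Pax7 was 0.62 in replicate 2 and, with point 60 replaced, 0.29 in replicate 1.

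**Figure D1:**
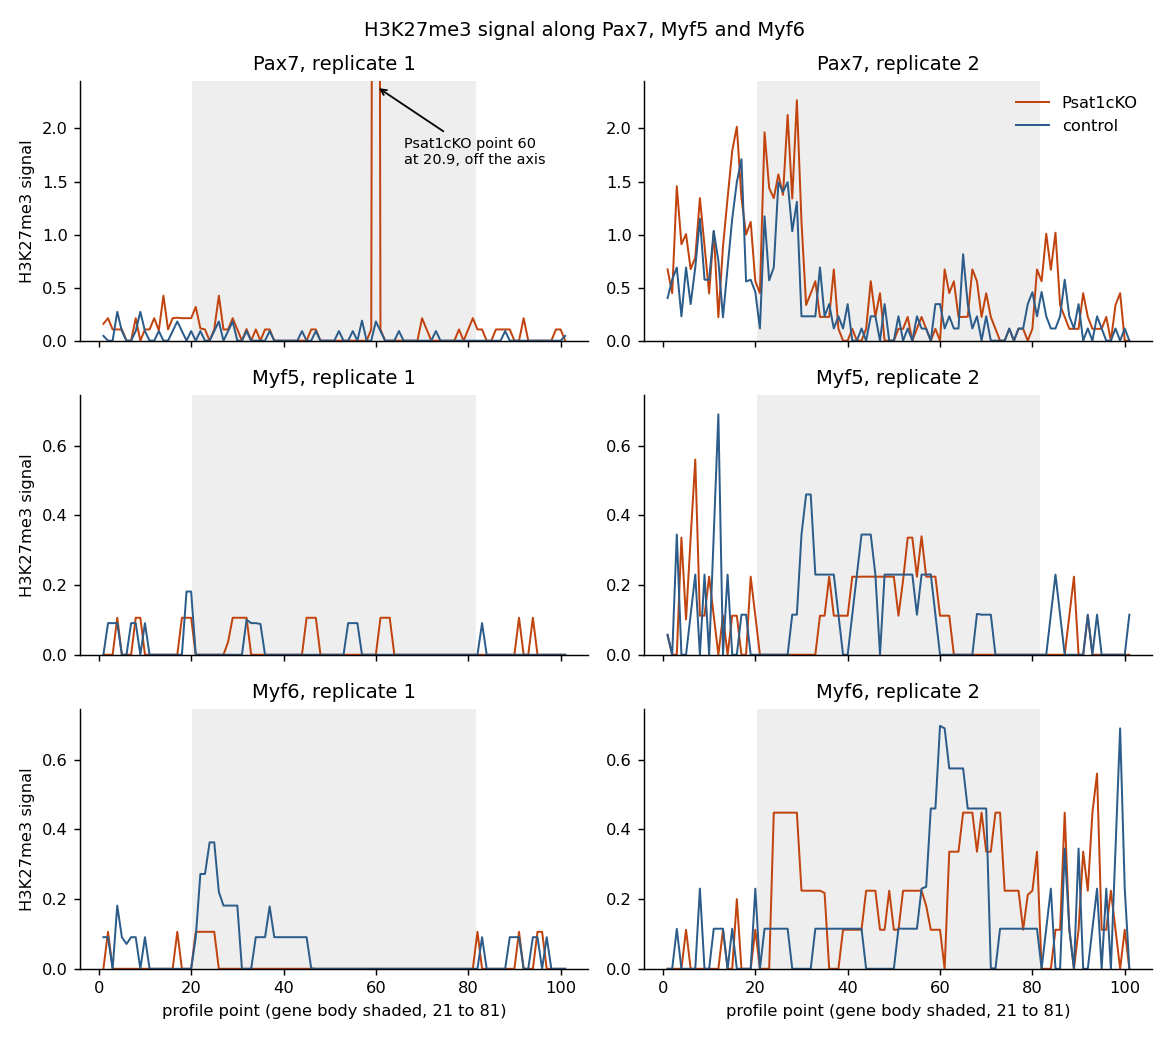
H3K27me3 signal (coverage, scaled by the submitters) at each profile point of Pax7, Myf5 and Myf6, with replicate 1 on the left and replicate 2 on the right; Psat1cKO is orange, control is blue, and the gene body is shaded. Replicate 2 shows a broad block over the start of Pax7, replicate 1 shows little signal except the point of 20.9 in Psat1cKO, which runs off the axis, and the flat steps in Myf5 and Myf6 are fragments stretched over many points.

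Myf5 had little signal in replicate 1. Its mean was 0.0193 and 0.0869 in knockout replicates 1 and 2, against 0.0162 and 0.105 in control replicates 1 and 2. In steps this is 18.3 and 78.3 in knockout replicates 1 and 2, against 18.1 and 92.5 in control replicates 1 and 2, and 82 and 85 of the points were at or below 0.01 in knockout and control replicate 1. The groups overlapped, and within a replicate number the genotypes were closer to each other than either was to the other number. In replicate 2 the mark lay in the upstream flank and in the middle of the body. Points 41 to 50 averaged 0.224 in knockout and 0.230 in control cells, and points 71 to 80 averaged 0 in knockout and 0.0115 in control cells.

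Myf6 was marked more in replicate 2 as well. Its mean was 0.0116 and 0.175 in knockout replicates 1 and 2, against 0.0487 and 0.148 in control replicates 1 and 2, and the groups overlapped. Knockout replicate 1 had signal above 0.01 at only 11 points, 11 steps in all, against 54.2 steps in control replicate 1. Those few steps are too shallow for a shape. In replicate 2 the Myf6 profile held 158 steps in knockout and 130 in control cells. The mark ran through the body into the downstream flank in knockout cells, with 0.157 at points 41 to 50 and 0.347 at points 61 to 70. In control cells it was low in the early body and higher later, with 0.0345 at points 41 to 50 and 0.529 at points 61 to 70. Spearman's rho between these 2 profiles was 0.28. The highest point of Myf6 lay at point 94, in the downstream flank, at 0.560 in knockout cells, and at point 60 at 0.697 in control cells.

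In level, Myf6 stood above Myf5 in each library except knockout replicate 1. On the log2(mean + 0.01) scale Myf5 minus Myf6 was 0.44 and -0.94 in knockout replicates 1 and 2, and -1.16 and -0.46 in control replicates 1 and 2. The mean difference was -0.53 (n = 4 libraries, exact two-sided sign-flip permutation p = 0.25); a test over 4 libraries cannot reach a p of 0.05. Pax7 was above both in the 2 replicate 2 libraries and in knockout replicate 1, with or without point 60, and was below Myf6 in control replicate 1.

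The gene body was then set against each flank within the same library. For each gene the difference of log2(mean + 0.01) was tested against 0 over the 4 libraries with limma and Benjamini-Hochberg adjustment, over 218 genes with enough signal. The body was above the upstream flank in 21.6% of these genes and below it in 45.4%, and it was above the downstream flank in 42.2%. A call is therefore common in these tables and singles out none of the 3 factors.

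Relative to the start of the gene, the differences of Pax7 and Myf6 had opposite signs, which were not tested against each other. For Pax7 the body minus the upstream flank was -0.53 ± 0.41 (SE; limma adjusted p = 0.277), and with point 60 replaced it was -1.20 ± 0.17 (SE; limma adjusted p = 0.00031), close to the -1.16 without knockout replicate 1 (limma adjusted p = 0.000144). The upstream flank of Pax7 averaged 0.151 and 0.997 in knockout replicates 1 and 2, against 0.0703 and 0.728 in control replicates 1 and 2. For Myf6 the body was above the upstream flank by 1.15 ± 0.44 (SE; limma adjusted p = 0.0441). That call was lost when the flanks were widened by 3 points into the body (difference 0.76, limma adjusted p = 0.293), with a pseudocount of 0.001 (adjusted p = 0.107), without control replicate 2 (adjusted p = 0.0752) and without knockout replicate 2 (adjusted p = 0.165). In knockout replicate 1 the body of Myf6, at 0.00870, was below its upstream flank, at 0.0106. In control replicate 1 they stood at 0.0571 and 0.0398, and the gap was wider in both replicate 2 libraries. For Myf5 the difference from the upstream flank was -0.62 ± 0.25 (SE; limma adjusted p = 0.0518). It passed without control replicate 2 (-0.82, limma adjusted p = 0.0201), without knockout replicate 1 (adjusted p = 0.0490) and with point 60 of Pax7 replaced (adjusted p = 0.0495). It did not pass with the flanks widened (-0.34, limma adjusted p = 0.278) or without control replicate 1 (-0.35, adjusted p = 0.302). Nor did it pass without knockout replicate 2 (limma adjusted p = 0.0746) or with pseudocounts of 0.001 (adjusted p = 0.0807) and 0.1 (adjusted p = 0.120). The upstream flank of Myf5 averaged 0.0318 and 0.131 in knockout replicates 1 and 2, against 0.0453 and 0.124 in control replicates 1 and 2. The body of Myf5 averaged 0.0180 and 0.0935 in knockout replicates 1 and 2, against 0.0105 and 0.121 in control replicates 1 and 2.

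The downstream flank held the lowest mean of the 3 regions for Pax7 and Myf5 in each of the 4 libraries. The body exceeded it by 1.32 ± 0.35 for Pax7 (SE; limma adjusted p = 0.00919) and by 1.00 ± 0.29 for Myf5 (SE; limma adjusted p = 0.0127). With point 60 replaced the difference for Pax7 was 0.66 and no longer passed (limma adjusted p = 0.0542), and without control replicate 2 the call of Myf5 was lost (difference 0.87, limma adjusted p = 0.0694). The body of Myf6 averaged 0.00870 and 0.230 in knockout replicates 1 and 2, against 0.0571 and 0.179 in control replicates 1 and 2. Its downstream flank averaged 0.0212 and 0.157 in knockout replicates 1 and 2, against 0.0317 and 0.149 in control replicates 1 and 2. The difference between body and downstream flank was 0.18 ± 0.28 for Myf6 (SE; limma adjusted p = 0.624).

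**Figure D2:**
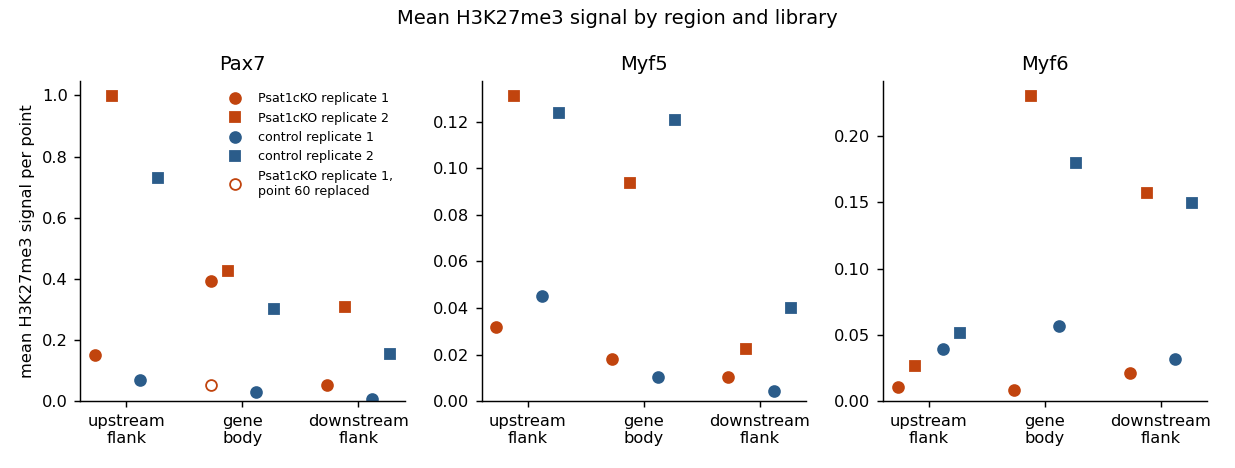
Mean H3K27me3 signal per point in the upstream flank, gene body and downstream flank of Pax7, Myf5 and Myf6; each filled symbol is 1 library (Psat1cKO orange and left, control blue and right; circles replicate 1, squares replicate 2), and the open circle is Psat1cKO replicate 1 with point 60 of Pax7 replaced. Squares stand above circles of the same genotype in each region of each gene, and the open circle lies at 0.0541, against 0.394 with the point.

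Set in their order on the chromosome, the flanks of Myf5 and Myf6 that face each other held more signal than the flanks that face away. This comparison was chosen after the values were seen and is a description, with no test. The genes lie 5920 bases apart and the width of a flank is not given. The facing flanks may therefore overlap and share fragments, so their values may not be separate measurements. The facing flanks, upstream of Myf5 and downstream of Myf6, averaged 0.0265 and 0.144 in knockout replicates 1 and 2, against 0.0385 and 0.137 in control replicates 1 and 2. The outer flanks, downstream of Myf5 and upstream of Myf6, averaged 0.0106 and 0.0246 in knockout replicates 1 and 2, against 0.0222 and 0.0460 in control replicates 1 and 2. The ratio of facing to outer flanks was 2.50 and 5.85 in knockout replicates 1 and 2, against 1.74 and 2.97 in control replicates 1 and 2. In replicate 1 these values rest on few steps. The upstream flank of Myf6 held 2 steps in knockout replicate 1, and the downstream flank of Myf5 held 1 in control replicate 1. In control replicate 1 the upstream flank of Myf6, at 0.0398, was above its facing flank, at 0.0317, so there the pattern came from Myf5 alone.

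**Figure D3:**
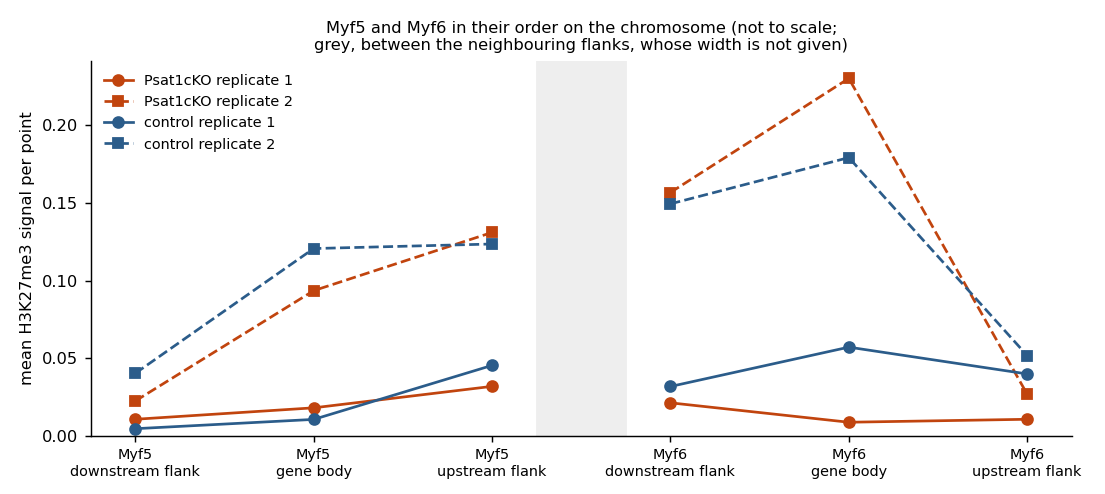
Mean H3K27me3 signal per point in the 3 regions of Myf5 and of Myf6, placed in their order on the chromosome (horizontal axis not to scale); each line is 1 library, orange for Psat1cKO and blue for control, with circles and solid lines for replicate 1 and squares and dashed lines for replicate 2. In replicate 2 the flanks beside the grey stretch lie between 0.124 and 0.157 and the outer flanks between 0.0224 and 0.0517.

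The comparison of the genotypes asked whether knockout and control cells differ in the level of H3K27me3 at these genes. Only knockout cells carry the Cre allele at Pax7, so loss of Psat1 and that allele cannot be told apart here. limma with no replicate term gave no call for Pax7, Myf5 or Myf6 over the whole profile, the flanks or the body. The background was the same: 0% of the 218 to 227 genes tested for each measure passed an adjusted p of 0.05. At an unadjusted p below 0.05 there were 1 gene for the whole profile, 1 for the upstream flank, 3 for the body and 2 for the downstream flank. Pax7 was 1 of the 3 for the body (limma unadjusted p = 0.0167). With point 60 replaced its unadjusted limma p there was 0.534, and 2 genes remained. With 2 libraries a group, an exact permutation test of 1 gene cannot give a two-sided p below 0.333. A fit with no replicate term leaves the difference between replicate numbers in its spread. For Myf5 over the whole profile the SE was 0.80, against 0.25 with a term for the replicate number (a replicate block). With that block Pax7 was called in the body (1.91, limma adjusted p = 0.0174), as 5 of 221 genes were. With point 60 replaced as well, Pax7 was not called there (0.59, limma adjusted p = 0.256).

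Pax7 had the higher value in knockout cells within both replicate numbers and in each region. Over the whole profile its log2 difference was 1.63 ± 0.82 (SE; limma adjusted p = 0.999), the highest of 218 genes, and 0.73 with point 60 replaced (limma adjusted p = 0.999). In the upstream flank, which point 60 does not touch, the knockout to control ratio was 2.15 in replicate 1 and 1.37 in replicate 2, and the log2 difference was 0.73 ± 1.17 (SE; limma adjusted p = 0.995). The knockout to control ratio of the body was 13.2 in replicate 1, or 1.81 with point 60 replaced, and 1.41 in replicate 2. In the downstream flank it was 7.80 in replicate 1, against only 1.5 steps in control replicate 1, and 1.99 in replicate 2. Of all genes tested, 22.9% for the whole profile, 23.7% for the upstream flank, 23.1% for the body and 21.1% for the downstream flank were higher in knockout cells within both replicate numbers, so this direction alone is common. The groups overlapped in both flanks, since each value of knockout replicate 1 was below that of control replicate 2. In the body both knockout libraries, at 0.394 and 0.426, were above both control libraries, at 0.0299 and 0.301, as in 4.98% of genes, but with point 60 replaced knockout replicate 1 stood at 0.0541 and the groups overlapped.

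In the fits with no replicate term, leaving out control replicate 2 gave a call for Pax7. Without that library Pax7 passed limma over the whole profile (log2 difference 3.17, adjusted p = 0.00214) and in the body (3.40, adjusted p = 0.000617). With point 60 replaced as well, neither call was made (differences 2.27 and 2.07, limma adjusted p = 0.999 and 0.996). Without control replicate 1 the whole profile difference of Pax7 was 0.086. With 1 library left out, the replicate numbers are unequal between the genotypes, so the difference between replicate numbers enters these values.

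Myf5 showed no common direction. Its knockout to control ratio was 1.19 in replicate 1 and 0.825 in replicate 2, and the log2 difference over the whole profile was -0.05 ± 0.80 (SE; limma adjusted p = 0.999), close to the median of all genes tested, -0.04. In the upstream flank the ratio was 0.702 in replicate 1 and 1.06 in replicate 2, and in the body 1.71 in replicate 1 and 0.775 in replicate 2. These ratios rest on few steps in replicate 1.

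Myf6 differed between the replicate numbers in direction. Its knockout to control ratio was 0.237 in replicate 1, the lowest of the 218 log2 differences there, and 1.18 in replicate 2, and the log2 difference over both was -0.61 ± 0.90 (SE; limma adjusted p = 0.999). Of its 3 regions, the upstream flank alone had the lower value in knockout cells within both numbers, as did 27.9% of genes tested. That flank averaged 0.0106 and 0.0268 in knockout replicates 1 and 2, against 0.0398 and 0.0517 in control replicates 1 and 2, so that the groups did not overlap, as both knockout libraries were below both controls in 15.5% of the 219 genes tested. The flank held 2 and 4.78 steps in the knockout libraries, against 8.78 and 8.99 in the control libraries, and the log2 difference was -1.01 ± 0.68 (SE; limma adjusted p = 0.995).

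Over the whole profile, the log2 difference between replicate numbers was larger in size than that between genotypes for all 3 genes. On the log2(mean + 0.01) scale, replicate 2 minus replicate 1 was 2.27 ± 0.50 for Myf6 (SE; limma with genotype as a covariate, adjusted p = 0.0720), 1.97 ± 0.61 for Pax7 (adjusted p = 0.112) and 1.93 ± 0.25 for Myf5 (adjusted p = 0.0529). These were the 3 highest of the 218 differences, whose median was -0.20, and they were also the 3 highest of all 273 genes with no filter on low signal. None of them passed the threshold in this fit, in which 1.38% of genes did, all of them higher in replicate 2. All 3 factors passed after quantile normalization (limma adjusted p of 0.0146 for Pax7, 0.00169 for Myf5 and 0.00647 for Myf6) and with a pseudocount of 0.1 (limma adjusted p of 0.0323 for Pax7 and 0.0187 for both Myf5 and Myf6). Calls were common in these fits: 69 of the 218 genes passed after quantile normalization and 58 of the 218 with the pseudocount of 0.1. With that pseudocount Pax7 ranked 1, Myf6 4 and Myf5 12 of the 218 genes.

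By genotype, replicate 2 stood above replicate 1 for each of the 3 genes. The ratio for Pax7 was 1.85 in knockout cells, or 7.06 with point 60 replaced, and 10.7 in control cells. Myf5 had a ratio of 4.51 in knockout and 6.49 in control cells, and Myf6 of 15.2 in knockout and 3.04 in control cells. Both replicate 2 libraries were above both replicate 1 libraries for all 3 genes, as they were in 28.9% of the genes tested. Myf5 passed the filter on low signal, a mean above 0.0233 in at least 2 libraries, only through its replicate 2 libraries, whereas Myf6 passed in 3 libraries and Pax7 in 4. The labels do not say how the handling of replicate 2 and replicate 1 differed. The DOWN list, which holds the 3 factors, was mostly higher in replicate 2: 35 of its 40 genes tested were higher in replicate 2 (median log2 difference 0.82), against 52 of the 178 genes of the UP list (median -0.30), and 8 of the 10 highest differences were on the DOWN list.

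**Figure D4:**
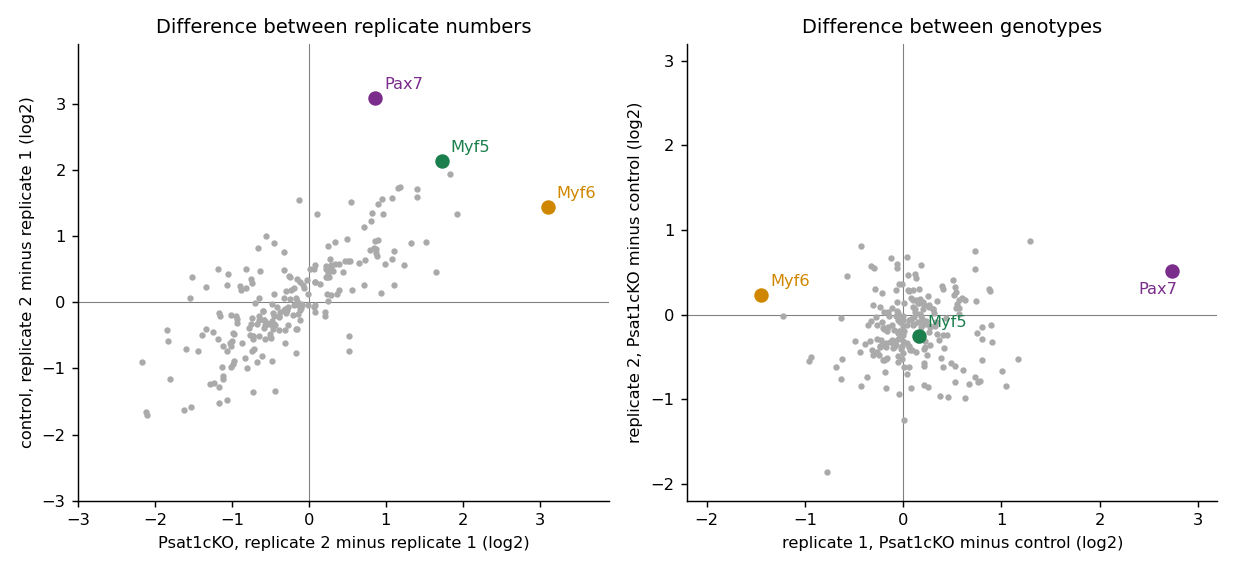
Log2 differences of mean signal (+ 0.01) for 218 genes, with Pax7, Myf5 and Myf6 in colour and all other genes in grey: on the left replicate 2 minus replicate 1 in Psat1cKO (horizontal) and control (vertical), on the right Psat1cKO minus control in replicate 1 (horizontal) and replicate 2 (vertical). On the left Myf5 and Myf6 lie toward the upper right, and Pax7 is the highest gene in control, at 3.08, but stands at 0.87 in Psat1cKO, where point 60 raises replicate 1. On the right Myf5 is inside the cloud. Pax7 and Myf6 stand apart in replicate 1, at 2.74 and -1.44, and not in replicate 2, at 0.52 and 0.23. With point 60 replaced the replicate 1 value of Pax7 is 0.94, and that of Myf6 rests on 11 steps in Psat1cKO.

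Other muscle genes were few in the tables. Of 22 myogenic regulators listed, these 3 were present. Of 22 genes of muscle structure, 3 were present and tested, and 0 of them passed limma between genotypes. Myh4, a fast myosin heavy chain, had a replicate 2 minus replicate 1 difference of 0.38 ± 0.15 (SE; limma adjusted p = 0.153), Ckm, the muscle creatine kinase, one of 0.79 ± 0.11 (adjusted p = 0.0529), and Atp2a1, the calcium pump of fast fibres, one of 1.63 ± 0.26 (adjusted p = 0.0576), rank 5 of 218. The mean signal of Atp2a1 was 0.0263 and 0.128 in knockout replicates 1 and 2, against 0.0342 and 0.101 in control replicates 1 and 2. Of 18 satellite cell genes, Cd34 had too little signal to be tested over the whole profile, and Jag1, a Notch ligand, was the 1 tested there: it did not pass between genotypes (log2 difference -0.17 ± 0.68, SE; limma adjusted p = 0.999), and its replicate 2 minus replicate 1 difference was -0.73 ± 0.26 (SE; limma adjusted p = 0.136).

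By likeness of the profile, measured as Spearman's rho over all points of the 4 libraries together, the genes closest to Pax7 were Syt13 (rho 0.45), Fbxo44 (0.41) and Perp (0.38), where the median over 217 genes was 0.06. Closest to Myf5 were Nnat (0.34), Gzmd (0.28) and Amigo2 (0.27), with a median of 0.01. Closest to Myf6 were Amigo2 (0.32), Pax7 (0.30) and Tceal5 (0.27), with a median of -0.04. Of the neighbours, Myf6 ranked 52 in likeness to Myf5, and Myf5 ranked 20 in likeness to Myf6 (rho 0.12). These rho values are descriptions over points that share libraries and depth, and in sparse coverage they are weak.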

How the data were processed

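The deposited values are a signal, coverage at each point of a gene profile, in 2 tables of 1 knockout and 1 control library each. The submitters' processing notes name the build mm10 and, as tools, Bowtie, Picard 2.22.2 and Trimmomatic 0.36, in no stated order; no source used here names the profiling program or its scaling. Coverage is not a count, so no count model was used. The table number was taken as the replicate number of the labels. The labels tie no replicate to an animal or culture of its own; the spread between libraries, on which each p-value rests, may therefore be technical.

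Means over points (whole profile, upstream flank, body, downstream flank) were transformed as log2(mean + 0.01) and fitted with limma 3.58.1 (R 4.3.3, variance trend), knockout against control with no replicate term, over genes above the lower quartile of values in at least 2 libraries, with Benjamini-Hochberg adjustment over all genes tested. The fit was checked on simulated data. These held no difference between replicate numbers, so the check does not cover that feature of the libraries. The rest was computed in Python 3.11.15 with scipy 1.17.1, pandas 2.3.3 and numpy 2.4.6, and drawn in matplotlib 3.10.9. Of the 273 genes, 268 matched RefSeq by transcript and the others by symbol; Pax7, Myf5 and Myf6 matched by transcript, and Pax7 and Myf5 have a promoter window there.

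Pax7, Myf5 and Myf6 and the gene lists were chosen with earlier results of these data known. Named besides them were the 3 most alike profiles for each and the listed muscle genes in the tables. Alternatives were other pseudocounts, no filter, quantile normalization, moved boundaries, a replicate block, each library left out and point 60 of Pax7 replaced; that replacement combined with the block or with a library left out was added after seeing the data.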

Additional observations from a re-analysis of the deposited data

How the results depend on the processing

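With 1 library left out at a time, the genotype difference changed sign for Pax7 in both flanks and for Myf5 in each measure. For Myf6 it changed sign in the whole profile, body and downstream flank. It kept its sign for Pax7 in the whole profile and body and for Myf6 in the upstream flank. These fits have no replicate term, so leaving out 1 library makes the replicate numbers unequal between the genotypes. The difference between replicate numbers then enters the genotype difference and cannot be separated from it in these values. For the whole profile, leaving out 1 library at a time gave 0.086 to 3.17 for Pax7, -1.11 to 1.02 for Myf5 and -2.16 to 0.95 for Myf6. Without control replicate 2 the values were 1.02 for Myf5 and 0.11 for Myf6, also with point 60 replaced, and without knockout replicate 1 they were 0.82 and 0.95. In the upstream flank the ranges were -0.88 to 2.33 for Pax7, -1.04 to 0.71 for Myf5 and -1.43 to -0.59 for Myf6. In the body the ranges were 0.43 to 3.40 for Pax7, -1.28 to 1.39 for Myf5 and -2.59 to 1.09 for Myf6. In the downstream flank the ranges were -0.22 to 3.08 for Pax7, -0.96 to 0.83 for Myf5 and -1.39 to 1.03 for Myf6. The signs that differed from those with all libraries were these. For Pax7 they came without control replicate 1 (-0.88 upstream, -0.22 downstream) and without knockout replicate 2 (-0.60 upstream). For Myf5 they came without control replicate 2 (0.47 upstream, 0.83 downstream), without knockout replicate 1 (0.71 upstream, 0.26 downstream), without control replicate 1 and knockout replicate 2 in turn (-1.28 and -0.89 in the body), and with pseudocounts of 0.1 (-0.048 in the body) and 0.001 (0.13 downstream). For Myf6 they came without knockout replicate 1 (1.09 in the body, 1.03 downstream) and without control replicate 2 (0.79 downstream). The number of genes called between genotypes ranged from 0 to 1 for the whole profile, the body and the downstream flank when 1 library was left out, and was 0 for the upstream flank; the 1 gene came without control replicate 2 for the whole profile and the body, and without knockout replicate 2 for the downstream flank.

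Same-numbered libraries deviated together (Pearson r = 0.76 over 218 genes), but with 2 numbers this is a hint from the data and not a pairing by design. With a replicate block, limma called 0 genes for the whole profile, 1 in the upstream flank and 5 in the body, among them Pax7 at 1.91 (limma adjusted p = 0.0174). With the block and point 60 replaced it called 11 in the body, and Pax7, at 0.59, was not among them (limma adjusted p = 0.256).

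Between replicate numbers the count of 3 genes called by limma was 33 with a pseudocount of 0.001, 58 with one of 0.1, 5 with no filter, 69 after quantile normalization and 23 with point 60 replaced. The differences that then passed were 1.24, 1.88 and 2.87 for Pax7 (pseudocount 0.1, quantile normalization, point 60 replaced), 2.37, 0.73, 2.17 and 1.93 for Myf5 (pseudocounts 0.001 and 0.1, quantile normalization, point 60 replaced), and 1.02 and 2.37 for Myf6 (pseudocount 0.1, quantile normalization). With 1 library left out they ranged from 0.87 to 3.08 for Pax7, 1.73 to 2.14 for Myf5 and 1.43 to 3.11 for Myf6. With 1 library left out, the counts of genes whose body differed from a flank stayed within 1.5 times the full count, and Myf5 minus Myf6 was -0.85 to -0.32. The cause of these shifts was not tested.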
